A study of Rattus norvegicus with 10 samples.

Results

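Arntl, Clock, Npas2, Rora, Nfil3 and Cry1 are 6 genes of the circadian clock, and their transcripts were followed in the subcutaneous muscle of arthritic rats. They were taken as the rows of the deposited expression table that carry 1 of these symbols, which gave 6 of 17221 transcripts (16497 symbols), 1 transcript for each gene. Arntl had been selected on its measured rise after therapy, its CPM in the treated groups against RA_0, and the other 5 were grouped with it as clock genes named for the phase of Arntl. The differences of Arntl from the untreated animals are therefore given below as values with no test, and no count in which they take part is support for anything.

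The 10 libraries were made from 10 rats (Wistar, female) in which immunisation with type II collagen had raised arthritis, a model of the human rheumatoid disease, and the 5 groups held 2 animals each. RA_0 animals were sampled before any therapy. AP_1h and AP_34d animals received acupuncture, in which a short needle was put in and twirled at points on the lower back and below the knee, and were sampled 1 hour after it or at 34 days. PLA_1h and PLA_34d animals received placebo, an injection of sterile saline, and were sampled at the same times. As the study describes its therapies, needling was repeated every other day and the saline injection once a week. The groups at 34 days therefore differed also in how often they were treated. Every animal was immunised and shaved, and no healthy animals were among these libraries. Per the study's methods the saline went into the peritoneum, whereas the tissue came from around the needled points, so the placebo groups had no needle at the sampled site. Each group was a set of different animals sampled once at sacrifice, and the labels give neither the ages of the animals nor the clock hour of sampling, although the rats lived in a light/dark cycle. Any difference in hour of sampling, or at 34 days in age and time since immunisation, is therefore part of the differences between groups given below. What part it had was not tested.

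The circadian clock is a feedback loop of transcription that most cells run over the day, and skeletal muscle holds one of its own. The protein of Arntl, also called Bmal1, pairs with CLOCK or with its relative NPAS2, and the pair switches on the Per and Cry genes, whose proteins then block it. In a second loop the same pair switches on Nr1d1, which represses Arntl, while RORA, a nuclear receptor, activates Arntl through the same kind of site. NFIL3 is a repressor that binds the sites used by the activators DBP, TEF and HLF, and Dbp is among the most direct targets of the ARNTL pair, so that Arntl and Dbp usually peak in opposite parts of the day.

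Values are CPM, read counts scaled to library size with factors from the trimmed mean of M-values (TMM), and the libraries held 5371687 to 8899521 counted reads, so that 1 CPM stood for 4.19 to 10.1 reads. Groups were compared with limma on log2(CPM + 1) over the 10259 transcripts that reached 1 CPM in each library of some group, and a call was a Benjamini-Hochberg adjusted p under 0.05. All 6 genes passed that filter. A fold change on this scale understates that of a gene near 1 CPM, which matters for Npas2, Rora, Clock and the RA_0 level of Arntl. With 2 animals a group, an exact permutation test of a single gene cannot go below p = 0.333 in a two-sided comparison. Skeletal muscle markers were abundant in every library (9 of 10 listed genes in the table, summed 126340 to 345862 CPM). The libraries were not alike in other tissue markers. The 8 slow-fibre genes summed to 20112 and 10200 CPM in RA_0, 11222 in AP_34d replicate 1 and 20077 in PLA_34d replicate 1, and to between 1005 and 4331 CPM in the other 6 libraries. The leukocyte markers (7 of 8 in the table) summed to 847 CPM in PLA_34d replicate 1 and 509 in AP_1h replicate 1 and to between 105 and 234 CPM elsewhere, and the 5 listed transcripts of the pan-leukocyte gene Ptprc were at 0 in every library.

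Arntl encodes the activating partner without which the loop stops, and it is described first as the gene the others are named for (NM_024362, rn4 chromosome 1, 171062181 to 171162426). In RA_0 it stood at 2.62 and 3.86 CPM. In AP_1h it stood at 22.6 and 24.9 CPM and in PLA_1h at 17.2 and 14.2 CPM. At 34 days it stood at 24.8 and 17.5 CPM in AP_34d and at 7.07 and 5.69 CPM in PLA_34d. All 8 libraries taken after therapy thus lay above both RA_0 libraries, and the lowest of them were those of PLA_34d. The 4 acupuncture libraries lay above the 4 placebo libraries, if barely so between AP_34d replicate 2 and PLA_1h replicate 1. In the order of the means, AP_1h came first, followed by AP_34d, PLA_1h, PLA_34d and RA_0, and of these neighbours only AP_1h and AP_34d had overlapping libraries. The same order held under library-total scaling, DESeq2 size factors, quantile normalization and with the 20 most abundant transcripts left out.

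**Figure D1:**
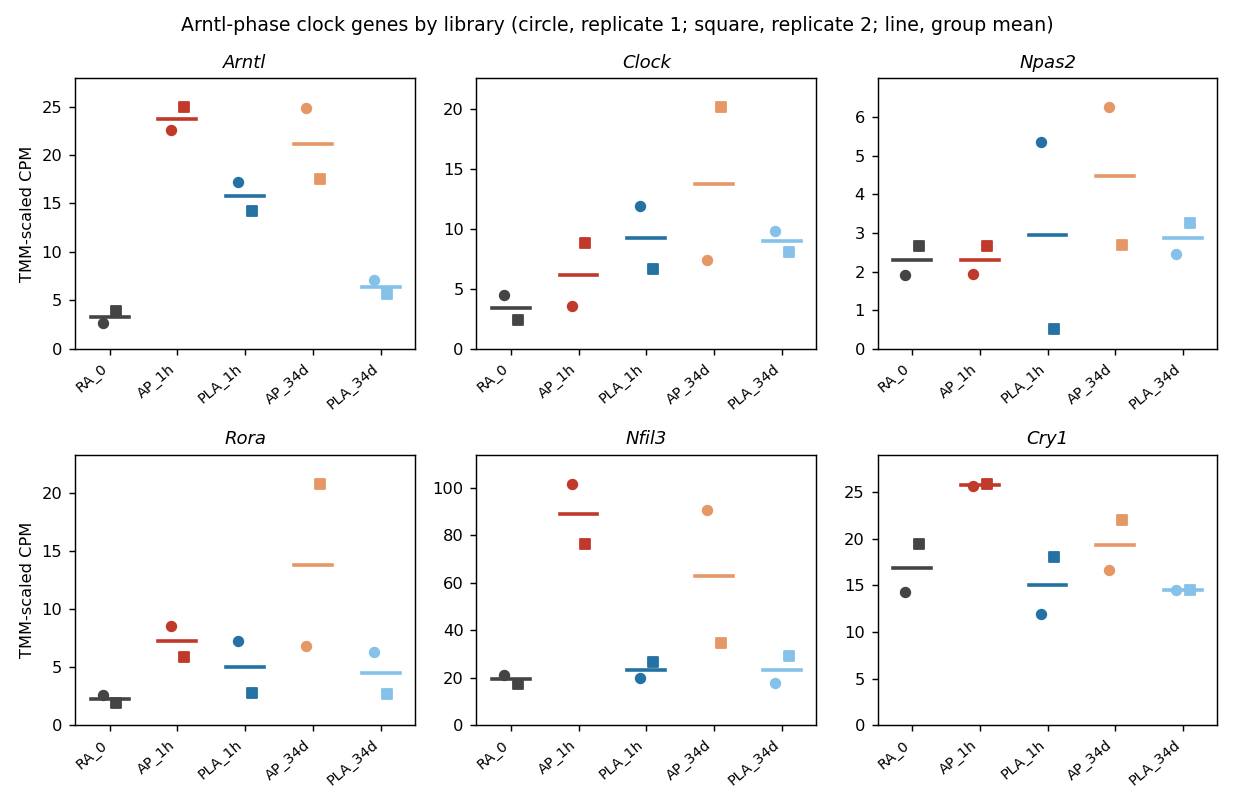
TMM-scaled CPM (vertical axis, linear, from 0) of each of the 6 genes in the 10 libraries, by group (horizontal axis); circles are replicate 1, squares replicate 2 and lines the mean of the 2. Arntl lies at 2.62 and 3.86 CPM in RA_0 and at 5.69 CPM or more in every other library, while the libraries of most groups overlap for Npas2.

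Against RA_0 (3.24 ± 0.875 CPM, SD, n = 2) the log2 difference of Arntl was 2.56 ± 0.33 (SE) in AP_1h, 1.99 in PLA_1h, 2.38 in AP_34d and 0.81 in PLA_34d, and these are the values the gene was chosen for. Over all transcripts tested, limma called 3 in AP_1h against RA_0 (0.0292%), and no result of that test is given for Arntl. Comparisons without RA_0 could be tested, although the treated libraries in them had also taken part in the choice of the gene. AP_34d exceeded PLA_34d by 1.57 ± 0.33, with no overlap of the libraries, and the adjusted p was 0.683 (limma). AP_1h exceeded PLA_1h by 0.57 ± 0.33, again without overlap (adjusted p = 1.00). Between the times, placebo animals had less Arntl at 34 days than at 1 hour (log2 difference -1.18 ± 0.33, adjusted p = 0.999), whereas the libraries of AP_34d and AP_1h overlapped. The gap between acupuncture and placebo was 1.00 ± 0.46 larger on the log2 scale at 34 days than at 1 hour, and this interaction did not pass either (adjusted p = 1.00, unadjusted p = 0.0554). DESeq2 on the recovered reads called the difference between AP_34d and PLA_34d (adjusted p = 0.0175), while limma-voom and edgeR's quasi-likelihood test did not.

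The slow-fibre markers were high in both RA_0 libraries, where Arntl was low, and lowest in AP_1h (1005 and 1198 CPM), where Arntl was at 22.6 and 24.9 CPM. Over the 10 libraries the 8 genes correlated with Arntl at -0.64 to -0.41. AP_34d replicate 1 had 11222 CPM of these markers with 24.8 CPM of Arntl, replicate 2 had 1916 CPM with 17.5 CPM, and the 2 libraries of PLA_34d had 20077 and 1740 CPM of the markers with 7.07 and 5.69 CPM of Arntl. Their part in the difference of the other groups from RA_0 was not tested. As these are bulk libraries of a tissue piece, fewer cells that carry a transcript and less of it per cell cannot be told apart for any gene described here. Without PLA_34d replicate 1, the library with the most leukocyte transcripts, the difference of Arntl between AP_34d and PLA_34d was 1.71.

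The start of Arntl is where the second loop of the clock acts, and its promoter window is shown because Rora, the activator of that site, is among the 6 genes and Nr1d1, its repressor, is measured below. In the RefSeq annotation of the GRCr8 assembly the window of 250 bases before and 50 after the start lies at chr1:176766078-176766377 on the plus strand, with the receptor hexamer AGGTCA in capitals:
Arntl: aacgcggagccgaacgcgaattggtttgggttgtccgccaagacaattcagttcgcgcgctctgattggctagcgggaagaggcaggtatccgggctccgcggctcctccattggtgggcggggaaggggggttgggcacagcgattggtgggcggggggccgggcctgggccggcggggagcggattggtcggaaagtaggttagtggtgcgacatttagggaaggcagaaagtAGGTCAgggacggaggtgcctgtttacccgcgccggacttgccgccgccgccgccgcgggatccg

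The capitals begin 15 bases before the annotated start. Together with the bases before them they match the longer ROR response element (an A/T-rich stretch followed by the hexamer), which 119 of 33469 windows of the same length held on either strand (0.356%), while the hexamer alone was in 16.2%. The windows found for Rora, Npas2, Nfil3 and Clock (a pair of windows for Clock) held neither. None of these windows, nor that of Arntl, held the E-box CACGTG (6.42% of all windows), the D-box TTANGTAA (2.24%), the site TGACGTCA (1.83%) or GGGTCA (13.8%). Of the 6 genes, 5 were matched to promoter windows, Cry1 not being among them. A match of letters is a description of the window only.

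Clock and Npas2 are the partners with which ARNTL binds DNA. Clock (NM_021856, chromosome 14, 34218472 to 34258054) stood at 4.53 and 2.38 CPM in RA_0, at 3.57 and 8.82 in AP_1h, at 11.9 and 6.67 in PLA_1h, at 7.42 and 20.2 in AP_34d and at 9.87 and 8.10 in PLA_34d. The libraries of PLA_1h, AP_34d and PLA_34d all lay above those of RA_0, those of AP_1h did not, and no other pair of groups was separated. The log2 differences from RA_0 were 1.20 ± 0.54 in PLA_1h (adjusted p = 1.00), 1.63 ± 0.54 in AP_34d (adjusted p = 0.967) and 1.20 ± 0.54 in PLA_34d (adjusted p = 0.914), none of which passed, and that of AP_34d came to 0.96 without replicate 2 of that group. Clock and Arntl therefore did not order the groups alike, since Clock was highest on average in AP_34d and had its second lowest mean in AP_1h, where Arntl was highest. These levels rest on 16 to 135 reads a library.

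Npas2 (NM_001108214, chromosome 9, 38255362 to 38434352), which can take the place of CLOCK, was the least counted of the 6, with 3 to 54 reads a library. It stood at 1.91 and 2.67 CPM in RA_0, 1.95 and 2.66 in AP_1h, 5.35 and 0.526 in PLA_1h, 6.25 and 2.69 in AP_34d and 2.47 and 3.27 in PLA_34d. The levels of RA_0 and AP_1h were nearly the same, and the lowest and the second highest value of the gene both fell in PLA_1h. The lowest value was 3 reads, with an exact Poisson interval of 0.109 to 1.54 CPM at 95% that covers counting error only. Only AP_34d was separated from RA_0 and from AP_1h, by 0.66 on the log2 scale in each case (adjusted p = 0.967 and 0.961, limma), which came to 0.17 without AP_34d replicate 1, and no difference in Npas2 passed the test at this depth. Replicate 2 of AP_34d and replicate 2 of RA_0 held 18 reads each, so that their order rests on the library scaling alone.

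Rora encodes the nuclear receptor that activates Arntl (NM_001106834, chromosome 8, 73052282 to 73817764). It stood at 2.62 and 1.93 CPM in RA_0, at 8.54 and 5.88 in AP_1h, at 7.24 and 2.81 in PLA_1h, at 6.84 and 20.8 in AP_34d and at 6.28 and 2.70 in PLA_34d. As for Arntl, all 8 libraries after therapy lay above both RA_0 libraries, though by little for the replicate 2 libraries of the placebo groups. The log2 difference from RA_0 was 1.31 ± 0.57 in AP_1h (adjusted p = 0.546) and 2.00 ± 0.57 in AP_34d (adjusted p = 0.898). In the placebo groups it was 0.78 in PLA_1h (adjusted p = 1.00) and 0.67 in PLA_34d (adjusted p = 0.914), and these came to 0.22 and 0.18 without replicate 1 of either group. The mean of the 4 treated groups exceeded RA_0 by 1.19 ± 0.45 (adjusted p = 0.891). AP_34d was also separated from PLA_34d, by 1.33 ± 0.57 (adjusted p = 0.856), and without AP_34d replicate 2, the library with the highest Rora, its differences from PLA_34d and RA_0 came to 0.59 and 1.27. At most 139 reads a library stood behind these values, and the lowest of them, 1.93 CPM in RA_0, had an interval of 1.03 to 3.30 CPM.

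Nfil3, the repressor of D-box sites, had the largest log2 difference of the 6 between acupuncture and placebo at 1 hour (NM_053727, chromosome 17, 18092489 to 18107708). It stood at 21.2 and 17.5 CPM in RA_0. In the acupuncture groups it stood at 102 and 76.5 CPM in AP_1h and at 90.8 and 34.7 CPM in AP_34d. In the placebo groups it stood at 19.8 and 26.9 CPM in PLA_1h and at 17.6 and 29.0 CPM in PLA_34d. All 4 acupuncture libraries thus lay above all 6 others, while the placebo libraries overlapped those of RA_0. The log2 difference of AP_1h from RA_0 was 2.14 ± 0.45 (adjusted p = 0.191) and from PLA_1h 1.89 ± 0.45 (adjusted p = 0.543). That of AP_34d was 1.50 ± 0.45 from RA_0 (adjusted p = 0.931) and 1.28 ± 0.45 from PLA_34d (adjusted p = 0.846), and without AP_34d replicate 1 these came to 0.81 and 0.59. None passed in limma. DESeq2 on the recovered reads called AP_1h against RA_0 (adjusted p = 0.00302) and against PLA_1h (adjusted p = 0.0285), and limma on the 2 groups alone called the former (adjusted p = 0.00993). On the same recovered reads limma-voom and edgeR's quasi-likelihood test called neither, nor did any other alternative. From 1 hour to 34 days the gap between acupuncture and placebo in Nfil3 changed by -0.61 ± 0.63 on the log2 scale (adjusted p = 1.00). AP_1h replicate 1, with the highest Nfil3, was also the library with the most immediate early transcripts (9 of 10 listed genes in the table, summed 2743 CPM against 768 in AP_1h replicate 2), whose part in it was not tested.

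Cry1 encodes a cryptochrome, the repressor that closes the loop, and its transcript varied least (NM_198750, chromosome 7, 20643879 to 20709216). The highest of the 10 libraries exceeded the lowest 2.18-fold, against 5.80-fold to 11.9-fold for the other 5 genes. It stood at 25.6 and 25.9 CPM in AP_1h, against 14.3 and 19.5 in RA_0 and 11.9 and 18.1 in PLA_1h. At 34 days it stood at 16.6 and 22.0 CPM in AP_34d and at 14.5 in both libraries of PLA_34d. AP_1h thus lay above every other library, but by small amounts, with a log2 difference of 0.60 ± 0.32 from RA_0 (adjusted p = 0.652) and 0.77 ± 0.32 from PLA_1h (adjusted p = 1.00). AP_34d lay above PLA_34d by 0.38 ± 0.32 (adjusted p = 0.918), and its log2 difference from AP_1h was -0.41 (adjusted p = 0.957). With 1 library left out these 4 differences shrank to as little as 0.39, 0.49, 0.18 and -0.22.

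**Figure D2:**
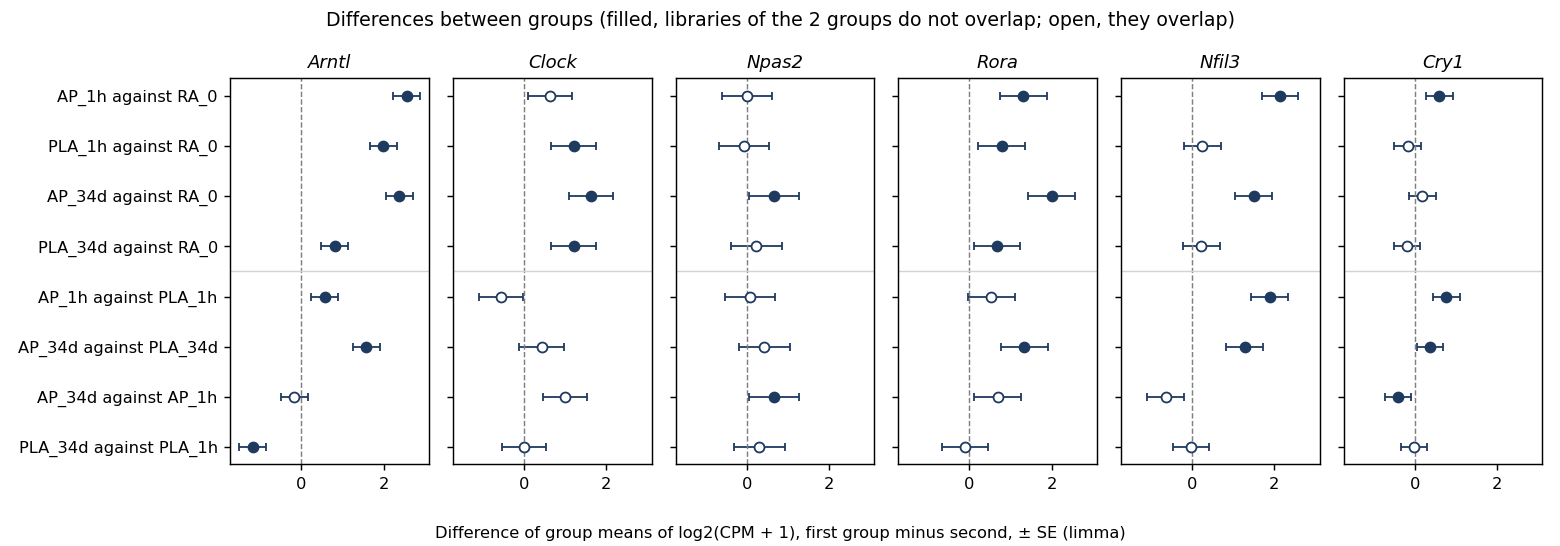
Differences between group means on log2(CPM + 1) with their SE (horizontal axis) for the 6 genes in 8 comparisons (vertical axis); filled points mark comparisons in which the libraries of the 2 groups do not overlap. Every difference of Arntl from RA_0 lies to the right of 0, from 0.81 to 2.56, and Nfil3 lies far to the right only where acupuncture is the first group and RA_0 or placebo the second.

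Counted over the 6 genes, 4 had AP_1h libraries wholly above those of RA_0 (20.6% of all transcripts tested did), 5 had AP_34d libraries above RA_0 (16.4%), and 3 did so in PLA_1h (15.8%) and 3 in PLA_34d (16.8%). None lay wholly below RA_0 in any treated group, where 21% of all transcripts did in AP_1h, 13.6% in PLA_1h, 15.9% in AP_34d and 14.2% in PLA_34d. For Arntl this follows from its choice. The 5 in AP_34d include Npas2, whose nearest libraries, at 2.69 and 2.67 CPM, held 18 reads each. Under the rule of the study (unadjusted p under 0.05 and a change of at least 2-fold), AP_1h against RA_0 took Nfil3 and Rora as higher (2.53% of all transcripts were). AP_34d took these and Clock (1.49%). PLA_1h took Clock (0.994%), and so did PLA_34d (1.98%). Arntl is left out of this reading against RA_0, and it is in the counts of libraries above RA_0 by its choice. Against placebo, 3 of the 6 had AP_1h libraries wholly above PLA_1h (13.9%) and 4 had AP_34d libraries above PLA_34d (16%), and the rule of the study took Nfil3 as higher in the former (0.975%) and Arntl, Nfil3 and Rora in the latter (1.38%). The median log2 difference from RA_0 of the 5 genes other than Arntl was 0.63 in AP_1h, 0.25 in PLA_1h, 1.50 in AP_34d and 0.24 in PLA_34d, beside medians between -0.01 and 0.00 for all transcripts. The 4 comparisons share the RA_0 libraries. By adjusted p, limma called none of the 5 genes other than Arntl in any comparison. Over all transcripts it made 0 calls in every comparison but AP_1h against RA_0, with 266 to 561 transcripts under an unadjusted p of 0.05 and 11 to 90 calls by DESeq2, and none by limma-voom or edgeR.

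The 6 genes did not move as 1 unit. Over the 10 libraries, which share the 5 groups and their scaling, the Pearson correlation of log2(CPM + 1) with Arntl was 0.74 for Nfil3, 0.67 for Rora, 0.46 for Cry1, 0.42 for Clock and 0.21 for Npas2. Among the other pairs it was highest for Clock and Rora (0.69) and for Nfil3 and Cry1 (0.65), and it was near 0 for Clock and Nfil3 (-0.04). Rora and Clock were both highest in AP_34d replicate 2, at 20.8 and 20.2 CPM, while Nfil3 and Arntl in that group were higher in replicate 1. These values take in the RA_0 libraries, for which Arntl was chosen, and the differences between them were not tested. For deviations from the group means the correlation with Arntl was instead 0.63 for Npas2, 0.16 for Nfil3, -0.21 for Rora, -0.26 for Cry1 and -0.34 for Clock. The only listed close relative of Arntl in the table, Arntl2, was at or below 0.448 CPM in every library.

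The genes of the opposing arm were read from lists of the repressor arm (6 of 9 genes in the table) and of the output factors (2 of 3), and no transcript of either passed limma in any comparison. Dbp, an activator of D-box sites and a direct target of the ARNTL pair, was the mirror of Arntl. It stood at 426 and 418 CPM in RA_0, at 167 and 81.3 in AP_1h and at 137 and 181 in PLA_1h. At 34 days it stood at 58.6 and 143 CPM in AP_34d and at 249 and 295 in PLA_34d. Both RA_0 libraries lay above all others, the PLA_34d libraries came next, and the other 6 lay lower and overlapped. The ratio of Dbp to Arntl was 162 and 108 in RA_0, 7.41 and 3.26 in AP_1h, 7.92 and 12.8 in PLA_1h, 2.36 and 8.19 in AP_34d and 35.3 and 51.9 in PLA_34d. The ratio was highest in RA_0 and next highest in PLA_34d, but the choice of Arntl for its low level in RA_0 fixed part of the gap between RA_0 and the treated groups. The part of the hour of sampling in this ratio was not tested, as the labels do not give it. Within each of the 5 groups, the animal with more Arntl had less Dbp, as for 298 of the 10259 transcripts (2.9%).

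**Figure D3:**
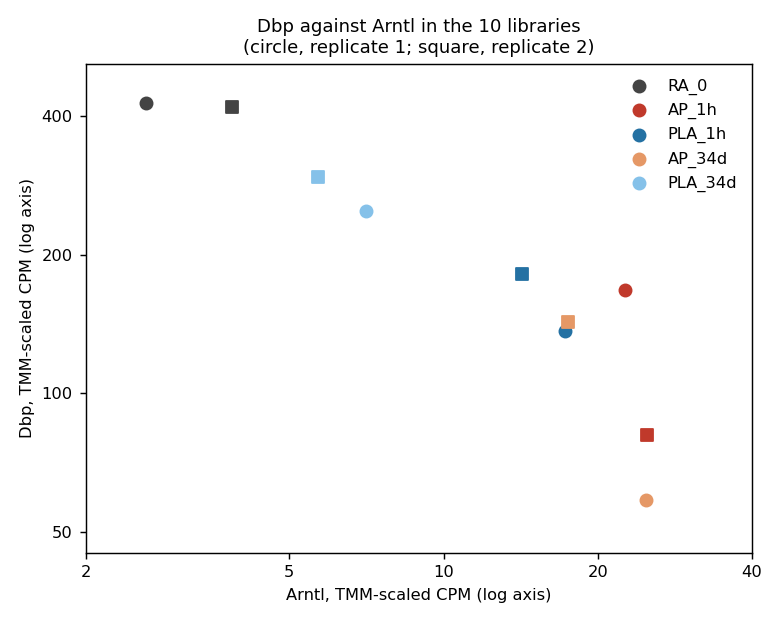
CPM of Dbp (vertical axis, log) against CPM of Arntl (horizontal axis, log) in the 10 libraries, coloured by group; circles are replicate 1 and squares replicate 2. The points fall from RA_0 at the upper left, at 426 and 418 CPM of Dbp, through PLA_34d to AP_34d replicate 1 at the lower right, at 58.6 CPM.

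The repressors were less orderly than Dbp. Nr1d1, which represses Arntl, stood at 33.2 and 29.6 CPM in RA_0, at 13.7 and 9.24 in AP_1h, at 23.2 and 21.6 in PLA_1h, at 25.8 and 21.1 in AP_34d and at 15.6 and 11.4 in PLA_34d. RA_0 was again highest, but AP_1h and PLA_34d, far apart in Arntl, were both low. Its transcript overlaps that of another gene in rn4, so that reads could have been shared or dropped in counting and these levels are uncertain. They are those of 1 transcript of Nr1d1, NM_001113422. The other in the table, NM_145775, was at or below 1.19 CPM in every library and did not pass the filter. Per1, a target of the ARNTL pair that also answers to hormones, stood at 116 and 140 CPM in RA_0 and at 48.3 and 68.6 in PLA_1h, while the AP_1h libraries were at 142 and 42.1. At 34 days Per1 was at 96.9 and 96.3 CPM in AP_34d and at 96.7 and 124 in PLA_34d. Per1 was thus separated from RA_0 in PLA_1h and AP_34d but not in AP_1h or PLA_34d.

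Per2 and Per3, its paralogs in the negative limb, spread widely in AP_34d and RA_0 and little in PLA_34d. Per2 ran from 22.5 to 69.8 CPM in AP_34d, and it stood at 57.7 and 88.4 in RA_0, 81.3 and 53.7 in AP_1h, 36.2 and 45.5 in PLA_1h and 68.7 and 68.4 in PLA_34d. Per3 ran from 17.4 to 53.5 CPM in AP_34d, and it stood at 27.7 and 61.5 in RA_0, 37.7 and 37.1 in AP_1h, 40.9 and 25.1 in PLA_1h and 67.9 and 69.7 in PLA_34d, the highest group. Cry2, the second cryptochrome, was lowest in AP_1h replicate 2 (16.9 CPM) and highest in AP_34d replicate 2 (43.9 CPM). Bhlhe40, a repressor of the ARNTL pair, and Tef, a relative of Dbp, had overlapping libraries in every comparison, from 76.0 to 221 CPM and from 231 to 541 CPM.

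**Figure D4:**
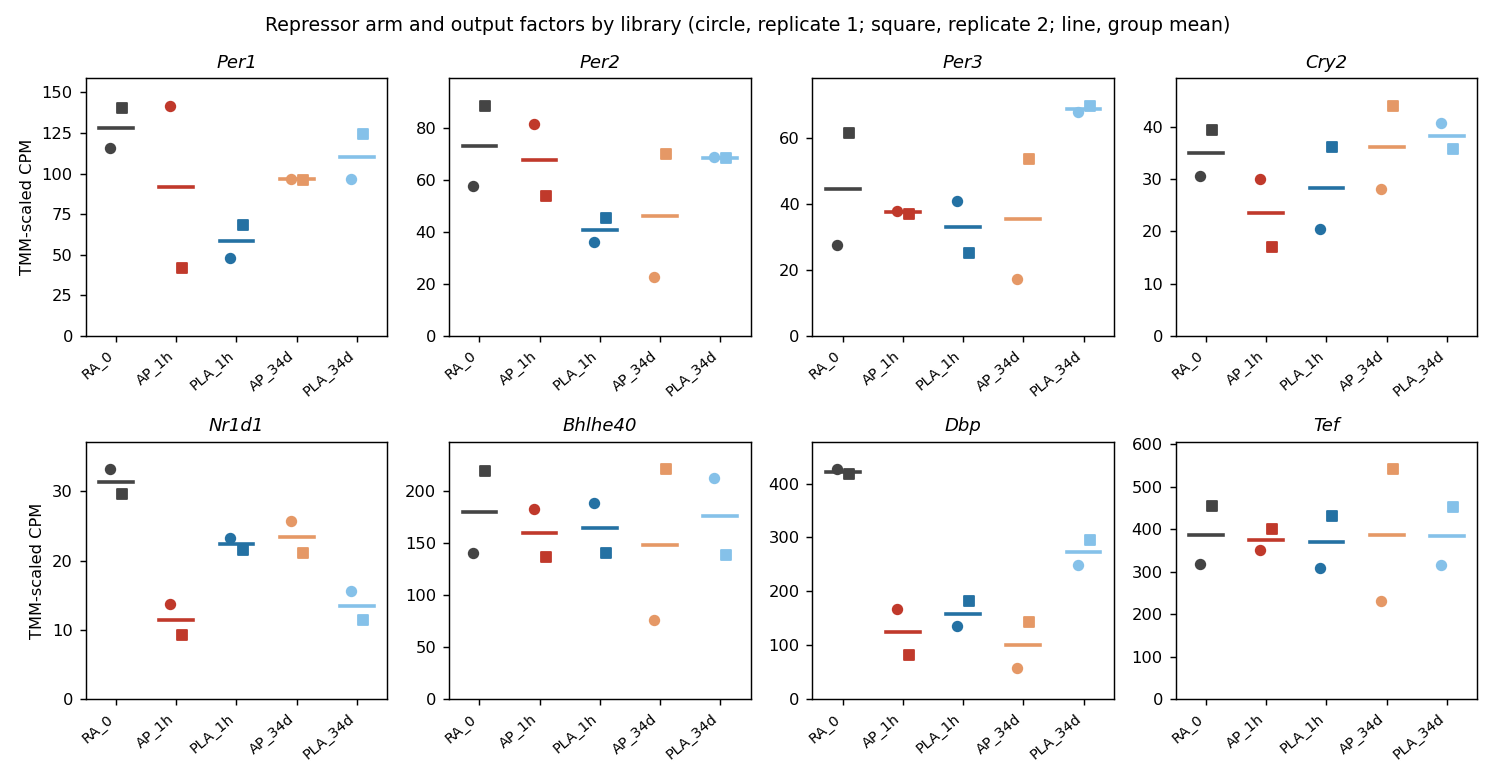
TMM-scaled CPM (vertical axis, linear, from 0) of the repressor arm and output factors in the 10 libraries by group (horizontal axis); circles are replicate 1, squares replicate 2 and lines the mean of the 2. Dbp stands highest in RA_0 and lowest in AP_34d replicate 1, whereas the libraries of Tef and Bhlhe40 overlap in all groups.

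The lists of clock cofactors and of clock-controlled outputs held no transcript called by limma. Of the 7 cofactors in the table, 5 were wholly above RA_0 in AP_1h (20.6% of all transcripts were) and 1 wholly below (21%). In PLA_1h 3 were above (15.8%) and 1 below (13.6%). In AP_34d 3 were above (16.4%) and 1 below (15.9%), and in PLA_34d 2 (16.8%) and 0 (14.2%). Of the 9 clock-controlled outputs, 2 were wholly above RA_0 in AP_1h (20.6%) and 3 wholly below (21%). In PLA_1h 1 was above (15.8%) and 3 below (13.6%). In AP_34d 2 were above (16.4%) and 2 below (15.9%), and in PLA_34d 0 (16.8%) and 2 (14.2%). Their median log2 differences from RA_0 were 0.001, -0.10, -0.06 and -0.07 in that order, so the list as a whole had no common direction. Among them Wee1, a kinase that holds the cell cycle, stood at 27.2 and 36.5 CPM in RA_0 and 40.9 and 29.7 in PLA_34d against 12.5 to 18.3 CPM in the other 6 libraries. Cdkn1a, an inhibitor of the cell cycle, stood at 20.3 and 81.4 CPM in RA_0 against 77.1 to 462 elsewhere. Both were named after their values were seen.

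By the likeness of their profile over the 10 libraries, the 5 transcripts nearest to Arntl were Fkbp5 (Pearson r 0.94, Spearman rho 0.83), Ucp3 (0.92 and 0.90), Lmbrd1 (0.91 and 0.84), Osbpl11 (0.90 and 0.75) and Pde7a (0.89 and 0.83). Fkbp5, a co-chaperone of the glucocorticoid receptor, stood at 21.5 and 21.7 CPM in RA_0, 239 and 149 in AP_1h, 108 and 154 in PLA_1h, 229 and 68.3 in AP_34d and 36.9 and 40.9 in PLA_34d. Like Arntl it was lowest in RA_0 and next lowest in PLA_34d. Ucp3, a mitochondrial carrier protein of muscle, stood at 36.3 and 103 CPM in RA_0 and 28.3 and 69.7 in PLA_34d against 399 to 1177 CPM in the other 6 libraries. The 5 least alike were Enoph1 (r -0.95), Dbp (-0.92), Sbk1 (-0.92), Prrg2 (-0.91) and Rcor2 (-0.91), so that Dbp ranked second from the bottom of 10259 transcripts. Both ends of this ranking take in the RA_0 libraries, for which Arntl was chosen. Transcripts that separate RA_0 from the treated groups are thereby favoured at either end, and the ranks are a description only. In each of the 5 groups the animal with more Arntl also had more Pde7a, an enzyme that breaks down cyclic AMP, as for 1.98% of transcripts.

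As Fkbp5 is a known target of glucocorticoids, hormones that also vary over the day and with stress, the list of glucocorticoid response genes (11 of 12 in the table) was set beside the 6 genes. Of its 11 transcripts tested, 8 were wholly above RA_0 in AP_1h (20.6% of all transcripts were), 6 in PLA_1h (15.8%), 8 in AP_34d (16.4%) and 3 in PLA_34d (16.8%). In PLA_34d 2 were wholly below (14.2%). The median log2 differences were 1.51, 0.69, 1.39 and -0.21 in that order of groups, and none passed limma. Fkbp5, whose likeness to Arntl led to this list being shown, is among the 11. In Tsc22d3, which encodes an anti-inflammatory mediator of these hormones, AP_1h stood apart at 864 and 848 CPM against 209 to 397 in the other 8 libraries. This gene was named after its values were seen. The summed level of the list was 559 and 881 CPM in RA_0 and 627 and 1013 in PLA_34d against 1352 to 3246 in the other 6 libraries. Those 6 were also the highest in Arntl. As Arntl was chosen for its rise from RA_0, and the list was shown for the likeness of Fkbp5, this match is not independent of the choice. The part of these genes in the levels of Arntl and Nfil3 was not tested.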

How the data were processed

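Total RNA of 10 muscle samples, 1 animal each, was sequenced on an Illumina HiSeq after TruSeq RNA v2 preparation. As the labels and the methods of the study state, the authors called bases with CASAVA 1.8.2, trimmed reads with cutadapt 1.2.1, aligned them with Bowtie2 2.1.0 to the rn4 build, counted them per transcript with HTSeq 0.5.4p3 and scaled them with edgeR 3.4.2. The strand setting is not given in the sources used here. The deposited signal values are TMM-scaled CPM. Every value was a whole number of reads within 0.01, or within a very small share of the count for the most abundant transcripts. Read counts were therefore recovered for the count tests, and the deposited scaling was rebuilt from them within 2.38e-09%.

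limma 3.58.1 (R 4.3.3) was fitted to log2(CPM + 1) of 10259 transcripts (59.6%), with 1 mean per group over all 10 libraries and a mean trend. It had 5.00 residual and 5.14 prior degrees of freedom. Alternatives were other pseudocounts, filters and scalings, limma-voom, edgeR 4.0.16, DESeq2 1.42.0, the compared groups alone, a replicate block and each library left out. Named by rule besides the 6 genes were the repressor arm, Dbp and Tef, and the 5 transcripts with the highest and the 5 with the lowest Pearson r with Arntl. Outside this rule Arntl2 and Ptprc were named from their lists, and Wee1, Cdkn1a and Tsc22d3 after their values were seen. A log2 difference with an adjusted p was printed for a member only where libraries did not overlap or an interaction was tested. Members and lists were chosen with earlier results of these data known. Libraries of 1 group correlated at 0.958 to 0.982 and libraries of different groups at 0.944 to 0.989 (log2 scale). Intervals and floors cover counting error only. Nr1d2, Bhlhe41, Ciart and Hlf were not analysed here.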

Additional observations from a re-analysis of the deposited data

How the results depend on the processing

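The 27 differences examined for the 6 genes were those in which the libraries did not overlap, so their direction could not turn when a library was left out. Limma made 3 calls in AP_1h against RA_0, and this count came to 122 with the compared groups alone, 173 by DESeq2, 1 with a pseudocount of 4, and 0 with edgeR, limma-voom, library total scaling, no filter or the top 20 transcripts left out; leaving out a library gave 0 to 6. Elsewhere the count of 0 rose under DESeq2 to 11 in PLA_1h, 33 in AP_34d, 38 in PLA_34d and 20 in all therapy against RA_0, to 42 in AP_1h against PLA_1h, 90 in AP_34d against PLA_34d, 42 in AP_34d against AP_1h and 35 in PLA_34d against PLA_1h. The compared groups alone gave 12 in AP_1h against PLA_1h and 2 in AP_34d against AP_1h, and a mean of at least 5 CPM gave 1 in each. Leaving out a library gave 0 to 1 in PLA_1h against RA_0 and in AP_34d against AP_1h. Without PLA_34d replicate 2, which leaves that group 1 library assumed to vary like the others, the 3 comparisons of PLA_34d held 438 (RA_0), 453 (AP_34d) and 428 (PLA_1h) calls, against 0 with the other libraries left out; the causes were not tested. Library total scaling set the median log2 difference of all transcripts at up to 0.23 (PLA_34d against RA_0), and under the rule of the study it turned 260 higher and 368 lower transcripts into 241 and 238 in AP_1h against RA_0, 203 and 45 into 191 and 11 in PLA_34d against RA_0, and 142 and 224 into 61 and 259 in AP_34d against PLA_34d. Counts by that rule in AP_1h against RA_0 (628) ran from 386 to 858 over the alternatives that keep all libraries. The labels do not say what the replicate numbers stand for. Deviations of same-numbered libraries correlated at -0.464 to 0.446, over 0.1 in 4 of 10 pairs, which does not settle whether the numbers mark a pairing. With the replicate block the 3 calls of AP_1h against RA_0 became 0. At 4.19 to 10.1 reads per CPM, depth limits Npas2 most.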
